A study of Mus musculus with 7 samples.

Results

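Polyamine metabolism was described here through 10 genes, Odc1, Amd1, Srm, Sms, Oaz1, Oaz2, Azin1, Sat1, Smox and Paox, in mouse cutaneous squamous cell carcinoma (cSCC). The genes were taken as the enzymes of polyamine synthesis and breakdown and the regulators of ornithine decarboxylase, and the pathway was selected on the difference in Odc1 counts between the 2 genotypes, which was already known. The values of the members in this contrast are therefore given as a description with no p, and nothing is read from whether the fit across all genes called them. All 10 were among the 24433 genes tested, and the lowest count of any of them in any tumour was 71. The RNA came from whole skin tumours of C57BL/6J mice that were 7 to 10 weeks old when Cre was induced by tamoxifen applied to the skin, and tumours were taken at the clinical endpoint. That age is the one in the labels, and the methods of the study give another range. Cre was a tamoxifen-inducible form (CreERT2) driven by the promoter of involucrin (Ivl), a gene of differentiating keratinocytes, and every mouse of both genotypes carried 1 inducible BRAFV600E allele, the activated form of the BRAF kinase. The Ivl:BRAFV600E-SOX2LSL mice carried in addition 1 copy of a Rosa26 transgene from which Cre switches on SOX2 together with EGFP, whereas 2 of the 3 Ivl:BRAFV600E mice carried a red fluorescent reporter at Rosa26. Each genotype had 3 tumours with a count column, each from a separate mouse, and they are numbered 1 to 3 within a genotype with no order implied. Ivl:BRAFV600E tumours 1 and 2 and Ivl:BRAFV600E-SOX2LSL tumour 3 came from female mice and the other 3 from male mice. Every Ivl:BRAFV600E-SOX2LSL tumour was collected sooner after induction than every Ivl:BRAFV600E tumour, so genotype and time after induction cannot be told apart.

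Putrescine, spermidine and spermine are small positively charged molecules that bind nucleic acids and are needed for growth. Ornithine decarboxylase makes putrescine, 2 aminopropyl transferases extend it to spermidine and spermine, and an acetyltransferase and oxidases run the path backwards. Antizymes bind ornithine decarboxylase and send it to the proteasome, and the antizyme inhibitor releases it. In mouse skin, ornithine decarboxylase is known for its induction in keratinocytes by tumour promoters. Several of these proteins are controlled at translation or by turnover, so a transcript level is not a measure of enzyme activity.

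The total count per tumour lay between 23565432 and 31152826. Sox2 checked the labels, at 0.716, 0.508 and 0.238 CPM (read counts relative to library size, scaled by TMM) in Ivl:BRAFV600E tumours 1 to 3 against 182, 155 and 158 in Ivl:BRAFV600E-SOX2LSL tumours 1 to 3. EGFP had 0 counts in every Ivl:BRAFV600E tumour and lay at 110.5 CPM or more in every Ivl:BRAFV600E-SOX2LSL tumour. Across all genes edgeR's quasi-likelihood test called 954 at an adjusted p below 0.05, which is 3.90% of those tested, 585 higher (2.39%) and 369 lower (1.51%) in Ivl:BRAFV600E-SOX2LSL. The values of the 3 tumours of a genotype did not overlap with those of the other genotype for 34.2% of genes, for 18.2% in the higher and for 16.0% in the lower direction.

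Bases before a RefSeq transcript start are shown for the 3 genes with the largest log2 fold change between genotypes, Odc1, Sms and Oaz2. They come from the RefSeq promoter windows of GRCm38.p6. Each stretch holds up to 250 bases and stops before the first base in an annotated exon of the gene. The Odc1 stretch is cut in this way to 171 bases, whereas the Oaz2 and printed Sms stretches have 250. Capitals mark the GC box letters GGGCGG, read on either strand so that CCGCCC is the reverse match, and the E-box letters CACGTG, the core letters bound by MYC and MAX. The Odc1 stretch is chr12:17544623-17544793 on the plus strand, the Oaz2 stretch is chr9:65676298-65676547 on the plus strand, inside the GENCODE span of the gene because other transcripts start further upstream, and the Sms stretch is chrX:157492288-157492537 on the minus strand.
Odc1: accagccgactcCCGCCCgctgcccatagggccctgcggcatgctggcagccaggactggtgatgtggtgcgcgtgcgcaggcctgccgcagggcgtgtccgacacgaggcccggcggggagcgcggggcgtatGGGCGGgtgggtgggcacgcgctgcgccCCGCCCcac
Oaz2: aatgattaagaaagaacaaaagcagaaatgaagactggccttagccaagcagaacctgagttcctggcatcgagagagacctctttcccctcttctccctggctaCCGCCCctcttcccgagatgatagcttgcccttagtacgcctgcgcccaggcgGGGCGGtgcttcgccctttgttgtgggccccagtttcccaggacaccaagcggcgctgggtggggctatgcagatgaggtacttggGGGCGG
Sms: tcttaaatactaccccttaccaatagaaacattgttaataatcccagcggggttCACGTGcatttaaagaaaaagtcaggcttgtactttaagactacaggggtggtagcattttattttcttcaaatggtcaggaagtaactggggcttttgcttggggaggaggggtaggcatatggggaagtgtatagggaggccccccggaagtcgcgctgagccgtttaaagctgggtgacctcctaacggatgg
The Odc1 and Oaz2 stretches each held 3 GC boxes and no match to CACGTG, whereas the Sms stretch held 1 E-box and no GC box. A further Sms stretch, not printed, at chrX:157491373-157491618 before another transcript start, held 4 GC boxes and no match to CACGTG, with a GC content of 75.2%. The Odc1 stretch had a GC content of 77.19%, the Oaz2 stretch 58.0% and the printed Sms stretch 47.2%. Over the full windows of 300 bases, GGGCGG was found in 8 of 10 windows of the members, those of Amd1, Oaz2, Odc1, Paox, Sat1, Smox and Sms among them, and in 35.66% of the 32851 windows of all genes. CACGTG was found in 1 of the 10 member windows, of Sms, and in 7.15% of all windows. A match describes the letters in the window and is no evidence of binding. The lack of a match covers only the bases searched, and bases outside the windows, introns among them, were not searched. Srm and Azin1 were not included.

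Odc1 (ENSMUSG00000011179, chr12:17544794-17551505, plus strand, GRCm38), which encodes the rate-limiting enzyme of the pathway, stood at 126, 113 and 88.3 CPM in Ivl:BRAFV600E tumours 1 to 3 and at 796, 560.5 and 321 CPM in Ivl:BRAFV600E-SOX2LSL tumours 1 to 3. All 3 Ivl:BRAFV600E-SOX2LSL tumours were above every Ivl:BRAFV600E tumour, tumour 1 being the highest and tumour 3 the lowest of them. The mean was 109 ± 19.3 CPM (SD, n = 3) in Ivl:BRAFV600E and 559 ± 237 CPM (SD, n = 3) in Ivl:BRAFV600E-SOX2LSL, a 5.12-fold ratio of means and a log2 fold change of 2.35 ± 0.34 (SE). The highest tumour exceeded the lowest 1.43-fold in Ivl:BRAFV600E and 2.48-fold in Ivl:BRAFV600E-SOX2LSL. Behind these values were 3705, 2454 and 1859 reads in Ivl:BRAFV600E and 28436, 17304 and 8893 in Ivl:BRAFV600E-SOX2LSL. Of the 100-base stretches of Odc1 transcripts, 10.13% also occur in transcripts of 9 other genes, Rps7-ps2 among them. In whole tumours, fewer cells of a type and less RNA per cell cannot be told apart.

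Sex ran unevenly through the genotypes, so the Odc1 values were also read within each sex. Among tumours of female mice, the level was 126 and 113 CPM in Ivl:BRAFV600E and 321 CPM in Ivl:BRAFV600E-SOX2LSL. Among those of male mice, it was 88.3 CPM in Ivl:BRAFV600E and 796 and 560.5 CPM in Ivl:BRAFV600E-SOX2LSL. Each sex had 1 tumour in one of the genotypes, and Odc1 had been selected on this difference, so these values are a description. With sex in the fit, the log2 fold change of Odc1 was 2.18 and edgeR did not call it.

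Amd1 (ENSMUSG00000075232, chr10:40287458-40302186, minus strand) encodes S-adenosylmethionine decarboxylase, which makes the aminopropyl donor of both later steps. Its level was 143, 108 and 120.0 CPM in Ivl:BRAFV600E tumours 1 to 3 and 100, 114 and 123 CPM in Ivl:BRAFV600E-SOX2LSL tumours 1 to 3. The groups overlapped, with a log2 fold change of -0.13 ± 0.15 (SE). Of the 100-base stretches of Amd1 transcripts, 67.05% also occur in transcripts of other genes, among them Amd2 and Amd-ps1, so its reads could have been split or dropped in counting. Amd2 itself had between 13 and 26 reads per tumour.

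Srm (ENSMUSG00000006442, chr4:148591503-148594993, plus strand) encodes spermidine synthase. It stood at 55.0, 48.7 and 42.7 CPM in Ivl:BRAFV600E and at 38.4, 39.3 and 46.9 CPM in Ivl:BRAFV600E-SOX2LSL, tumours 1 to 3 in both. The ranges overlapped and the log2 fold change was -0.23 ± 0.15 (SE). Sms (ENSMUSG00000071708, chrX:157443855-157492287, minus strand), which encodes spermine synthase, was at 4.43, 5.68 and 3.37 CPM in Ivl:BRAFV600E and at 11.6, 8.32 and 6.54 CPM in Ivl:BRAFV600E-SOX2LSL. Every Ivl:BRAFV600E-SOX2LSL tumour was above every Ivl:BRAFV600E tumour for Sms, in the same order as for Odc1. The Sms mean was 4.50 ± 1.155 CPM (SD, n = 3) and 8.82 ± 2.57 CPM (SD, n = 3). The log2 fold change of 0.97 ± 0.295 (SE) rested on 71 to 130 reads per Ivl:BRAFV600E tumour and 181 to 415 per Ivl:BRAFV600E-SOX2LSL tumour. A copy, Sms-ps, had 45, 32 and 15 reads in Ivl:BRAFV600E and 95, 37 and 56 in Ivl:BRAFV600E-SOX2LSL, and 16.42% of the 100-base stretches of Sms transcripts also occur in other genes.

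**Figure D1:**
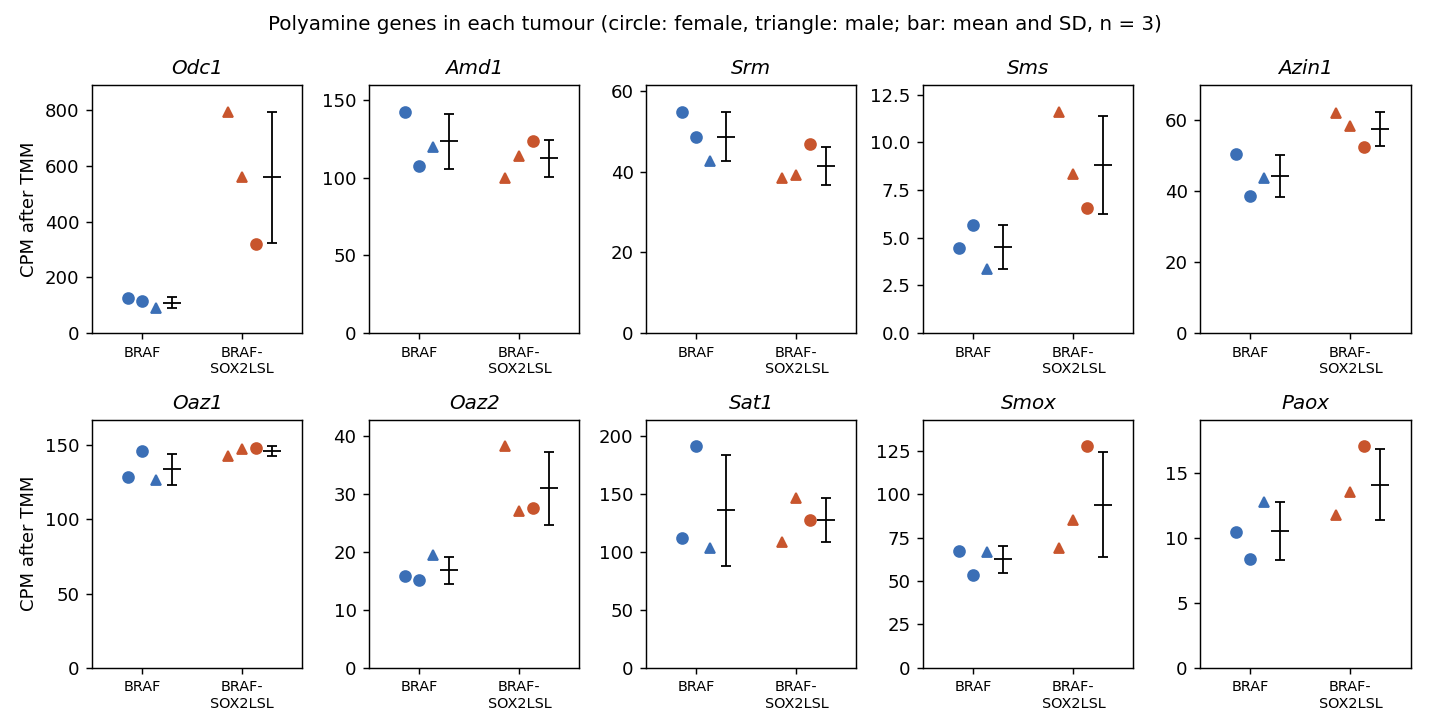
Level of each of the 10 polyamine genes (y axis, CPM after TMM scaling, from 0) in the 3 Ivl:BRAFV600E tumours (blue) and the 3 Ivl:BRAFV600E-SOX2LSL tumours (orange), with circles for female and triangles for male mice and bars for the mean and SD. Odc1 lies at 88.3 to 126 CPM in Ivl:BRAFV600E and at 321 to 796 CPM in Ivl:BRAFV600E-SOX2LSL, whereas Amd1, Srm, Oaz1, Sat1 and Paox overlap between the genotypes.

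Among the regulators of ornithine decarboxylase, Oaz1 (ENSMUSG00000035242, chr10:80826656-80829290, plus strand), the main antizyme, was at 128, 146 and 127 CPM in Ivl:BRAFV600E tumours 1 to 3 and at 142, 148 and 148 CPM in Ivl:BRAFV600E-SOX2LSL tumours 1 to 3. The ranges overlapped, and the log2 fold change of 0.13 ± 0.12 (SE) became 0.031 under upper-quartile scaling. Oaz2 (ENSMUSG00000040652, chr9:65668001-65690300, plus strand), a related antizyme, was at 15.9, 15.1 and 19.4 CPM in Ivl:BRAFV600E and at 38.3, 27.1 and 27.7 CPM in Ivl:BRAFV600E-SOX2LSL. Its groups did not overlap, the mean being 16.8 ± 2.30 CPM (SD, n = 3) and 31.05 ± 6.29 CPM (SD, n = 3), with a log2 fold change of 0.88 ± 0.19 (SE). The copies Oaz1-ps and Oaz2-ps had 15 to 39 and 7 to 17 reads per tumour, and 14.49% of the 100-base stretches of Oaz1 transcripts also occur in Oaz1-ps.

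Azin1 (ENSMUSG00000037458, chr15:38487427-38519266, minus strand) encodes the antizyme inhibitor, a relative of ornithine decarboxylase without its activity. It stood at 50.5, 38.5 and 43.6 CPM in Ivl:BRAFV600E and at 62.0, 58.3 and 52.4 CPM in Ivl:BRAFV600E-SOX2LSL. The groups came close without overlapping, and the log2 fold change was 0.38 ± 0.14 (SE).

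Sat1 (ENSMUSG00000025283, chrX:155213132-155216449, minus strand) encodes the spermidine and spermine acetyltransferase that starts the way back. It was at 112.5, 191.5 and 104 CPM in Ivl:BRAFV600E tumours 1 to 3 and at 109, 146.5 and 128 CPM in Ivl:BRAFV600E-SOX2LSL tumours 1 to 3. The highest tumour of all was Ivl:BRAFV600E tumour 2, and the log2 fold change of -0.09 ± 0.25 (SE) was 0.24 without it.

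Smox (ENSMUSG00000027333, chr2:131491496-131525922, plus strand) encodes spermine oxidase, which turns spermine into spermidine. Its level was 67.4, 53.6 and 66.4 CPM in Ivl:BRAFV600E and 69.05, 85.3 and 128 CPM in Ivl:BRAFV600E-SOX2LSL. The groups did not overlap, but Ivl:BRAFV600E-SOX2LSL tumour 1 lay just above Ivl:BRAFV600E tumour 1, and the order within Ivl:BRAFV600E-SOX2LSL was the reverse of that of Odc1. The log2 fold change was 0.59 ± 0.235 (SE), and leaving out 1 tumour at a time moved it between 0.31 and 0.77. Paox (ENSMUSG00000025464, chr7:140115799-140137224, plus strand), the oxidase of acetylated polyamines, was at 10.5, 8.36 and 12.8 CPM in Ivl:BRAFV600E and at 11.8, 13.5 and 17.1 CPM in Ivl:BRAFV600E-SOX2LSL. Its groups overlapped, with a log2 fold change of 0.42 ± 0.22 (SE), and 23.61% of the 100-base stretches of its transcripts also occur in other genes, Echs1 among them.

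Of the 10 genes, 5 (Odc1, Sms, Oaz2, Smox and Azin1) did not overlap between the genotypes, all 5 in the higher direction, where 18.2% of all genes tested did so. The other 5 overlapped. The log2 fold change was above 0 for 7 genes and below 0 for Amd1, Srm and Sat1, and its median was 0.40 against 0.04 over all genes tested. Odc1 was the 1 member called by edgeR's quasi-likelihood test, where 3.90% of all genes were called. That call was lost without any single Ivl:BRAFV600E tumour, where the log2 fold change was 2.47, 2.38 and 2.22 for tumours 1 to 3, and without Ivl:BRAFV600E-SOX2LSL tumour 2, where it was 2.35. It was also lost with sex as a covariate (2.18), and was kept without Ivl:BRAFV600E-SOX2LSL tumour 1 (2.01) or tumour 3 (2.64). Because the genes were chosen with this contrast known, nothing is read from these counts.

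**Figure D2:**
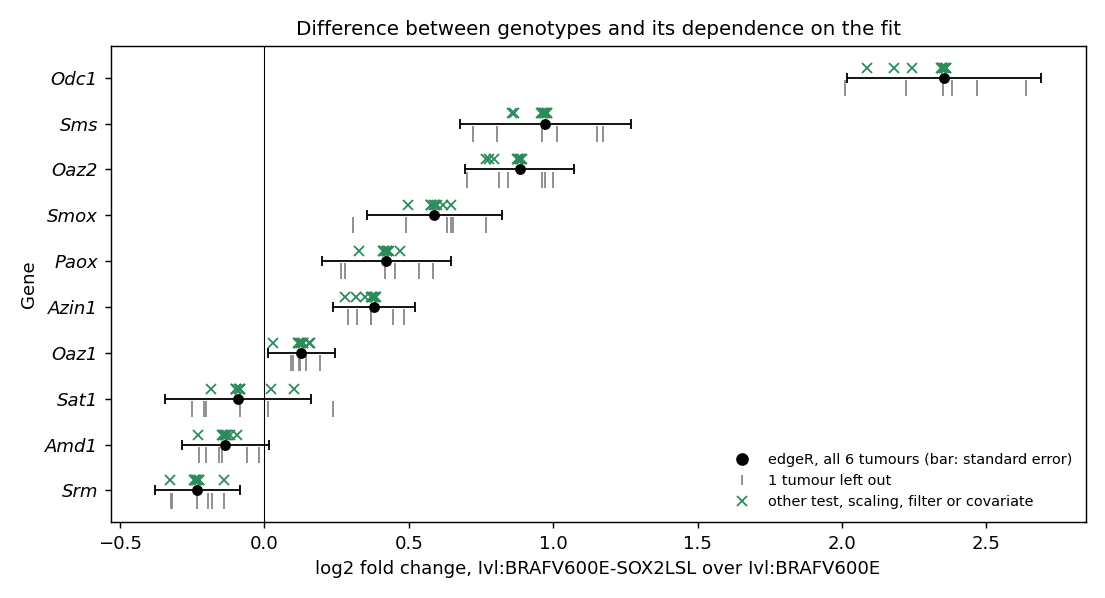
Log2 fold change of Ivl:BRAFV600E-SOX2LSL over Ivl:BRAFV600E (x axis) for each polyamine gene (y axis) from all 6 tumours (black, bar for the standard error), with 1 tumour left out (grey) and under other tests, scalings, filters or covariates (green). Odc1 stays between 2.01 and 2.64 throughout, and Sat1 lies on both sides of 0.

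Levels were compared between genes per kilobase of merged exons (RPKM after TMM). In Ivl:BRAFV600E the order of the mean levels was Oaz1 (52.2 RPKM), Sat1 (49.0), Amd1 (34.8), Odc1 (32.1), Srm (30.5), Smox (16.05), Azin1 (7.07), Oaz2 (5.63), Paox (2.15) and Sms (0.748). In that order the tumours of neighbouring genes stood apart between Srm and Smox, Smox and Azin1, Oaz2 and Paox, and Paox and Sms, and overlapped elsewhere. Oaz1 overlapped with Sat1 but stood apart from Amd1, Odc1 and Srm, which overlapped with each other. Odc1 ranked 4, 3 and 5 among the 10 in Ivl:BRAFV600E tumours 1 to 3.

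In Ivl:BRAFV600E-SOX2LSL the mean level of Odc1 was 164 RPKM, followed by Oaz1 (57.1), Sat1 (46.1), Amd1 (31.7), Srm (26.0), Smox (24.1), Oaz2 (10.4), Azin1 (9.20), Paox (2.88) and Sms (1.47). Odc1 was the most abundant of the 10 in each Ivl:BRAFV600E-SOX2LSL tumour, at 234, 165 and 94.3 RPKM, apart from the range of Oaz1. Neighbours overlapped for Amd1 and Srm, for Srm and Smox, and for Oaz2 and Azin1, and Sms was the lowest in both genotypes. Among all genes with an exon length, 95.09% had a lower mean RPKM than Odc1 in Ivl:BRAFV600E and 99.41% in Ivl:BRAFV600E-SOX2LSL. With exon lengths from the smaller GENCODE basic annotation, chosen after the data were seen, Odc1 ranked 3 in Ivl:BRAFV600E and 1 in Ivl:BRAFV600E-SOX2LSL, with means of 49.5 and 253 RPKM.

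**Figure D3:**
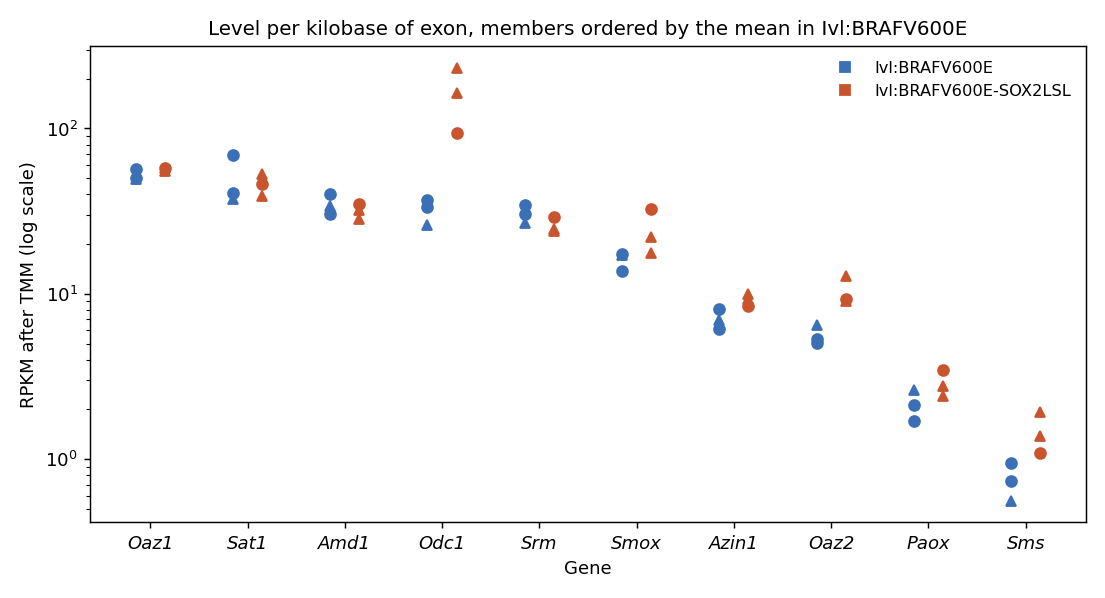
Level per kilobase of exon (y axis, RPKM after TMM, log scale) of the 10 polyamine genes (x axis, ordered by the mean in Ivl:BRAFV600E) in each tumour, with circles for female and triangles for male mice. Odc1 moves from among Amd1 and Srm in Ivl:BRAFV600E, at a mean of 32.1 RPKM, to the top in Ivl:BRAFV600E-SOX2LSL, at a mean of 164 RPKM.

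Ratios of 2 genes within a tumour do not depend on library scaling. The log2 ratio of Odc1 to Oaz1, the enzyme to its antizyme, was -0.44, -0.775 and -0.93 in Ivl:BRAFV600E tumours 1 to 3 and 2.07, 1.51 and 0.70 in Ivl:BRAFV600E-SOX2LSL tumours 1 to 3, on the RPKM scale. Oaz1 transcript exceeded Odc1 transcript per length in every Ivl:BRAFV600E tumour and was below it in every Ivl:BRAFV600E-SOX2LSL tumour. Oaz1 itself overlapped between the genotypes, so the change of this ratio restates the Odc1 difference the pathway was selected on. With the lengths of the basic annotation, Oaz1 had a mean of 124 RPKM against 49.5 for Odc1 in Ivl:BRAFV600E and of 136 against 253 in Ivl:BRAFV600E-SOX2LSL.

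The log2 ratio of Odc1 to Oaz2 lay between 2.00 and 2.80 in Ivl:BRAFV600E and between 3.35 and 4.19 in Ivl:BRAFV600E-SOX2LSL. For Odc1 to Azin1 it was 1.90 to 2.435 and 3.49 to 4.56, and for Odc1 to Amd1, the 2 decarboxylases, -0.385 to 0.13 and 1.44 to 3.05. None of these ratios overlapped between the genotypes, which restates the Odc1 difference the pathway was selected on. Azin1 to Oaz1 ranged from -3.21 to -2.64 in Ivl:BRAFV600E and from -2.79 to -2.49 in Ivl:BRAFV600E-SOX2LSL and overlapped.

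For the terminal synthases, the log2 ratio of Sms to Srm was -5.54, -5.01 and -5.57 in Ivl:BRAFV600E and -3.64, -4.15 and -4.75 in Ivl:BRAFV600E-SOX2LSL, so that Srm transcript was above Sms transcript in every tumour and the ratio did not overlap between genotypes. The log2 ratio of Sat1 to Smox was 1.23, 2.33 and 1.13 in Ivl:BRAFV600E and 1.14, 1.27 and 0.49 in Ivl:BRAFV600E-SOX2LSL and overlapped. Odc1 made up 15.7%, 13.4% and 12.5% of the summed RPKM of the 10 genes in Ivl:BRAFV600E and 54.9%, 43.7% and 29.7% in Ivl:BRAFV600E-SOX2LSL. These shares also restate the Odc1 difference the pathway was selected on.

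Genes whose pattern was most like Odc1 were taken by Pearson's r of log2 CPM over the 6 tumours, among 8650 genes with a mean of at least 10 CPM. The 5 highest were Icam1 (r = 0.997), an adhesion molecule, Clasp2 (0.996), a microtubule-binding protein, Mllt3 (0.993), a chromatin reader, Mybpc2 (0.993), a myosin-binding protein of fast skeletal muscle, and Pthlh (0.993), parathyroid hormone-like hormone. Pthlh was at 11.97, 12.01 and 9.503 CPM in Ivl:BRAFV600E and at 131, 84.2 and 57.1 CPM in Ivl:BRAFV600E-SOX2LSL, and Icam1 was at 10.5 to 11.9 and at 14.95 to 19.0 CPM. Mybpc2 was at 0.0341, 0.0 and 0.0 CPM in Ivl:BRAFV600E and at 72.7, 15.4 and 4.26 CPM in Ivl:BRAFV600E-SOX2LSL, so that it passed the minimum mean only through Ivl:BRAFV600E-SOX2LSL and its r rests on values at or near 0 in the other group.

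The 3 lowest were Cers4 (r = -0.998), a ceramide synthase, Nrarp (-0.994), a Notch-regulated ankyrin repeat protein, and Tmem63a (-0.994), a membrane channel. Among the members, r with Odc1 was 0.94 for Sms, 0.91 for Oaz2 and 0.89 for Azin1, between 0.43 and 0.63 for Oaz1, Smox and Paox, and -0.09, -0.51 and -0.68 for Sat1, Amd1 and Srm. The 6 tumours share the genotype split, and 7.46% of the genes compared had r above 0.9, so these values describe the pattern and no more.

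The surroundings of the pathway were described by 6 lists of 55 genes, 47 of them tested, of which 5 were called (10.6%), 3 higher and 2 lower, where 3.90% of all genes were called, 2.39% higher and 1.51% lower. In the supply of arginine and ornithine, 2 of 9 tested genes rose, 1 fell and 6 did not pass, with a median log2 fold change of 0.17. Nos2, the inducible nitric oxide synthase, which uses arginine, rose from 0.478, 0.693 and 0.618 CPM to 2.52, 3.11 and 7.84 CPM (log2 fold change 2.91 ± 0.51 SE, edgeR quasi-likelihood adjusted p = 0.0327). Oat, the aminotransferase that links ornithine to proline and glutamate, rose from 25.8, 27.6 and 28.4 CPM to 40.6, 40.3 and 40.5 CPM (0.57 ± 0.11 SE, edgeR adjusted p = 0.0436). Ass1, argininosuccinate synthase, a step of arginine synthesis, fell from 99.1, 119 and 90.6 CPM to 58.9, 49.3 and 68.4 CPM (-0.81 ± 0.17 SE, edgeR adjusted p = 0.0491).

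Each of these 3 calls was lost in some of the fits with 1 tumour left out. Ass1 and Oat kept theirs only without Ivl:BRAFV600E-SOX2LSL tumour 1, and Nos2 only without tumour 1 or tumour 3 of that genotype. With sex as a covariate edgeR no longer called Oat (adjusted p = 0.116) or Ass1 (0.0964), and under upper-quartile scaling it no longer called Oat (0.0668). Over all alternatives the adjusted p ran from 8.13e-06 to 0.158 for Nos2, from 0.000509 to 0.178 for Oat and from 0.00154 to 0.167 for Ass1, by edgeR, DESeq2 or limma.

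In the MYC and MAX network, transcription factors that bind CACGTG and of which MYC is a known activator of Odc1, 1 of 10 genes rose, 1 fell and 8 did not pass, and the median log2 fold change was -0.22. Mycl, a MYC family member, fell from 53.3, 72.2 and 59.0 CPM to 16.4, 20.05 and 22.5 CPM (-1.65 ± 0.18 SE, edgeR adjusted p = 0.011). Mxd4, a MAX partner that opposes MYC, rose from 29.1, 23.65 and 40.7 CPM to 59.3, 69.4 and 68.7 CPM (1.08 ± 0.21 SE, edgeR adjusted p = 0.0411), with 6.06% of its exon bases shared with another gene. Mycl missed the threshold of edgeR without Ivl:BRAFV600E tumour 1 (adjusted p = 0.0726) or tumour 2 (0.0521), and over all alternatives its adjusted p ran from 3.8e-12 to 0.0726. Mxd4 kept its call only without Ivl:BRAFV600E tumour 3 or Ivl:BRAFV600E-SOX2LSL tumour 1 among the fits with 1 tumour left out. It was also lost with sex as a covariate (edgeR adjusted p = 0.0838) and under upper-quartile scaling (0.0534), and its adjusted p ran from 0.000473 to 0.171.

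Myc itself was at 97.6, 83.0 and 67.7 CPM in Ivl:BRAFV600E and at 68.8, 58.9 and 67.9 CPM in Ivl:BRAFV600E-SOX2LSL. Its groups overlapped and it did not pass (-0.34 ± 0.16 SE, edgeR adjusted p = 0.232). Mxd1, another MAX partner and the most abundant gene of the list, was at 224 to 298 CPM in Ivl:BRAFV600E and 249 to 254 CPM in Ivl:BRAFV600E-SOX2LSL (-0.115 ± 0.15 SE, edgeR adjusted p = 0.663). Myc was added to the named genes for its role, after its values were seen.

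No gene passed in the remaining 4 lists. Hypusination, the use of spermidine to modify eIF5A, had 4 tested genes with a median log2 fold change of -0.44. Eif5a itself was at 899.5, 1053 and 767 CPM in Ivl:BRAFV600E and 444, 605 and 655 CPM in Ivl:BRAFV600E-SOX2LSL. Its groups did not overlap (-0.67 ± 0.205 SE, edgeR adjusted p = 0.104). Of the 11 tested transport genes, whose median was -0.14, Slc7a1, a carrier of arginine and ornithine, was at 285.5, 249 and 206 CPM against 116.5, 162 and 162 CPM, without overlap (-0.75 ± 0.19 SE, edgeR adjusted p = 0.0711). Atp13a3, a polyamine transporting ATPase, was at 156.5 to 164 CPM and 151 to 293 CPM (0.41 ± 0.235 SE, edgeR adjusted p = 0.311).

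The 9 tested genes of the methionine cycle and methylthioadenosine salvage, which provide the substrate of Amd1 and recover methylthioadenosine, the by-product of the Srm and Sms reactions, had a median log2 fold change of 0.06. Mat2a, which makes S-adenosylmethionine, was at 133 to 175 CPM and 129.5 to 149 CPM (-0.12 ± 0.15 SE, edgeR adjusted p = 0.633). The 4 tested genes of the antizyme family and other polyamine enzymes had a median of 0.87 but were low, with a summed level of 3.82 to 5.68 CPM in Ivl:BRAFV600E and 6.64 to 11.8 CPM in Ivl:BRAFV600E-SOX2LSL. For these 4 lists, 0 calls came from edgeR's quasi-likelihood test. At an unadjusted p below 0.05 they held 11 of 28 genes, where 25.7% of all genes tested were below it. DESeq2 called 6 of the 28, against 15.0% of all genes, and limma voom called 3, against 8.77%.

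**Figure D4:**
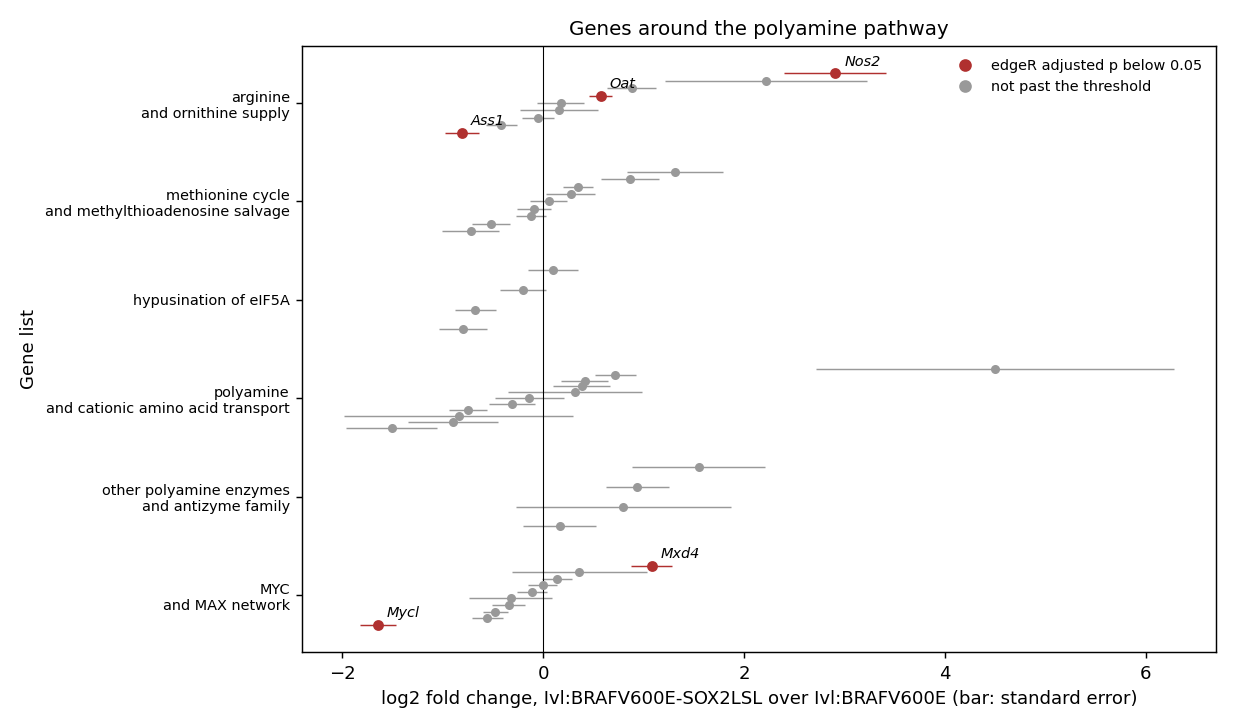
Log2 fold change of Ivl:BRAFV600E-SOX2LSL over Ivl:BRAFV600E (x axis, bar for the standard error) for the tested genes of 6 lists around the polyamine pathway (y axis), with genes past the edgeR threshold in red. Nos2, Oat and Mxd4 lie above 0 and Ass1 and Mycl below it, and the other 42 genes did not pass.

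The summed levels of markers of some cell types also stood apart between the genotypes. The summed level of 10 skeletal-muscle markers was 2.32 to 4.94 CPM in Ivl:BRAFV600E and 1065, 1061 and 252 CPM in Ivl:BRAFV600E-SOX2LSL tumours 1 to 3, 8 of the 10 being called higher by edgeR, where 2.39% of all genes were, and Myh4 was at 0 in every Ivl:BRAFV600E tumour. The 6 macrophage markers summed to 50.7 to 99.0 CPM in Ivl:BRAFV600E and to 413, 171 and 136 CPM in Ivl:BRAFV600E-SOX2LSL, all 6 higher without overlap, and the 4 neutrophil markers to 14.9 to 22.85 and 37.1 to 57.4 CPM, 3 of them higher without overlap. The 6 suprabasal keratinocyte markers summed to 76980 to 90300 CPM in Ivl:BRAFV600E and to 2509, 18450 and 25840 CPM in Ivl:BRAFV600E-SOX2LSL, 5 of them lower without overlap. Ivl, whose promoter drives Cre, was the marker that overlapped, at 208, 40.4 and 76.5 CPM in Ivl:BRAFV600E and 72.5, 22.0 and 114.5 CPM in Ivl:BRAFV600E-SOX2LSL. Of all genes tested, 18.2% were higher and 16.0% lower without overlap. By edgeR, 1 of the 6 macrophage markers was called higher, and 0 of the 4 neutrophil and 0 of the 6 suprabasal markers were called. Ly6g, a neutrophil marker without overlap, was low, at 0.0 to 0.0475 CPM in Ivl:BRAFV600E and 0.181 to 0.196 CPM in Ivl:BRAFV600E-SOX2LSL.

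The sums of 4 sebaceous gland markers were also apart, at 8.315 to 27.6 CPM in Ivl:BRAFV600E and 38.8 to 84.4 CPM in Ivl:BRAFV600E-SOX2LSL. Most of that sum was Soat1 (7.99 to 24.6 and 32.3 to 81.0 CPM), the 1 marker of the 4 without overlap, while Mc5r, Awat1 and Awat2 overlapped. The sums overlapped between the genotypes for markers of basal keratinocytes (17380 to 35450 and 11690 to 27130 CPM), fibroblasts (408 to 2512 and 1919 to 4284 CPM), endothelium (111 to 115.5 and 104 to 132 CPM), hair follicle (1.29 to 217 and 1.34 to 101 CPM), T cells (0.97 to 3.52 and 1.68 to 4.77 CPM) and adipocytes (0.0 to 0.428 and 0.0648 to 13.5 CPM). Most of the basal sum was Krt14 (13440 to 31250 and 6528 to 21150 CPM), and most of the fibroblast sum was Col1a1 (384.5 to 2285 and 1691 to 4019 CPM). Single markers of these lists stood apart although the sums overlapped. Itga6 (basal), Pdgfra (fibroblast) and Pecam1 (endothelium) were higher and Kdr (endothelium) lower without overlap, and edgeR did not call them. For 3 markers of proliferating cells the sum was 497 to 757 CPM in Ivl:BRAFV600E and 550.2 to 648.5 CPM in Ivl:BRAFV600E-SOX2LSL. The part of any of these in the polyamine values was not tested.

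**Figure D5:**
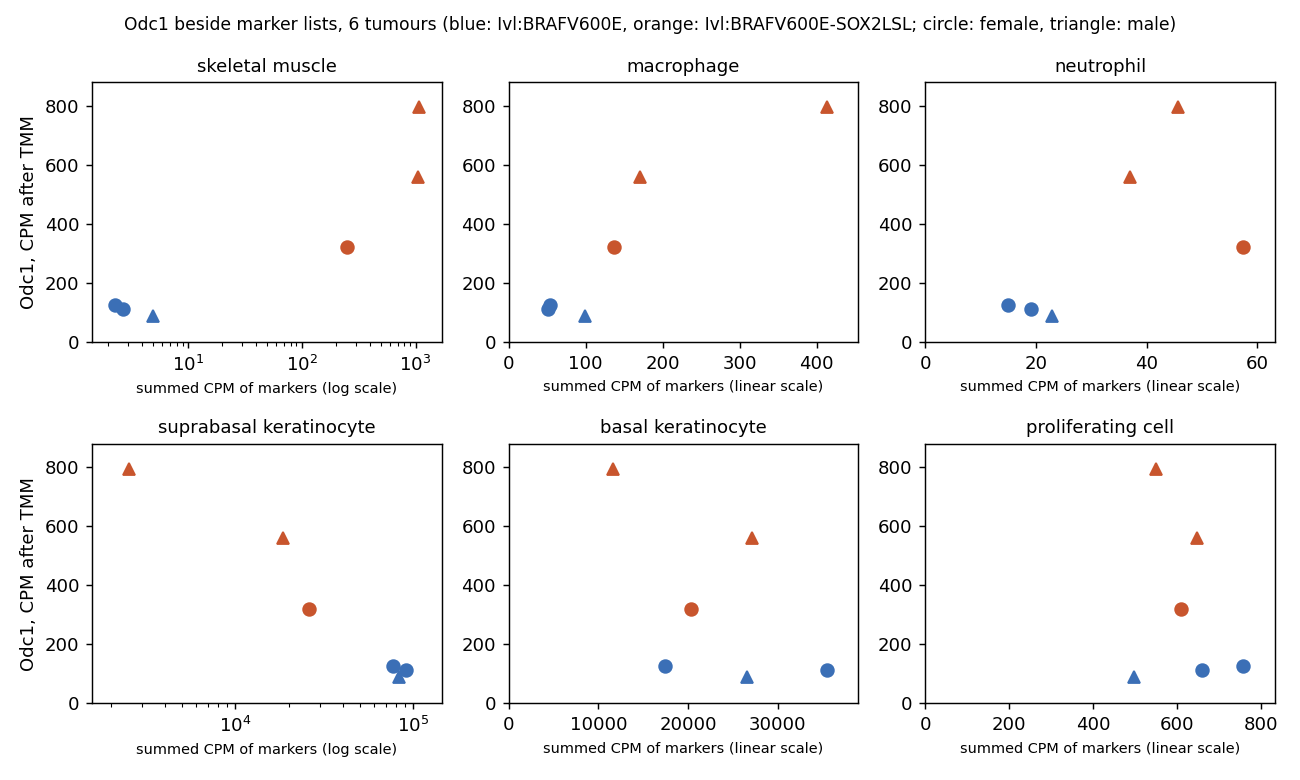
Odc1 (y axis, CPM after TMM) against the summed level of markers of 6 cell types (x axes, CPM, log scale where the axis says so) in each tumour, with blue for Ivl:BRAFV600E, orange for Ivl:BRAFV600E-SOX2LSL, circles for female and triangles for male mice. The skeletal-muscle, macrophage, neutrophil and suprabasal sums separate the genotypes, whereas the basal keratinocyte and proliferation sums overlap.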

How the data were processed

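Total RNA from mouse skin tumours was depleted of ribosomal RNA and sequenced as paired reads, and the authors deposited 1 table of raw read counts per Ensembl gene. Per the labels, the reads were checked with FastQC 0.11.8, trimmed with Trim Galore, aligned with HISAT2 2.1.0 to GRCm38 and counted with featureCounts of Subread 1.6.3. Strand and the treatment of reads with several matches are not given in the sources used here. The columns are named by mouse, and their genotype and sex were taken from the mouse list in the source data of the study, since the labels number the tumours without naming mice. 3 columns of each genotype were used and 1 further column was not used because its mouse is not in that list. The labels give 4 Ivl:BRAFV600E tumours, and whether the unused column is one of them was not settled. Of 55423 features, 55154 had a symbol.

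A gene entered the fit if any 1 tumour had 5 reads or more. The quasi-likelihood test of edgeR 4.0.16, run in R 4.3.3, was applied after TMM scaling and genotype as the only term, and p-values were adjusted by Benjamini-Hochberg over all 24433 genes with a threshold of 0.05. Standard errors were derived from the log2 fold change and its F statistic, and log2 CPM used a prior count of 2. For 3 tumours against 3, the smallest p an exact permutation test allows is 0.1. RPKM was CPM per kilobase of merged exons in GENCODE M21. A count of 3 corresponds to 0.0839 to 0.143 CPM per tumour. The fit was tested on simulated counts.

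Alternatives were DESeq2 1.42.0, limma 3.58.1 (voom with sample weights), other scalings and filters, sex as a covariate and leaving out each tumour. The members and lists were chosen with earlier results of these data known. Genes named were the 10 members, genes of the lists that passed the threshold (up to 6 per list by p) or stood above 100 CPM in every tumour, the 5 highest and 3 lowest correlations with Odc1, copies of members by symbol, and Sox2. A gene of these lists that meets this rule is not reported here.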

Additional observations from a re-analysis of the deposited data

How the results depend on the processing

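Of the log2 fold changes of single members under the alternatives, 149 stayed within 1 SD of the tumours and 1 moved further, that of Oaz1 to 0.031 under upper-quartile scaling. The number of all genes called was 3653 with DESeq2 (15.0%), 2142 with limma voom (8.77%), 1759 without a filter (5.24%), 1296 with filterByExpr (7.37%), 974 with upper-quartile scaling (3.99%), 228 with sex as a covariate (0.933%) and 22 to 1575 with 1 tumour left out (0.0918% to 6.69%). Members called were 3 with DESeq2 (Odc1, Oaz2 and Sms), 2 with limma voom, 2 without a filter, 2 with filterByExpr, 0 with sex and 0 to 2 with 1 tumour left out. Genes called for arginine and ornithine supply were 1 with sex and 0 to 3 with 1 tumour left out. For the MYC and MAX network they were 4 with DESeq2, 1 with upper-quartile scaling, 1 with sex and 0 to 2 with 1 tumour left out. DESeq2 called 2 genes of hypusination, 3 of transport and 1 of the other polyamine enzymes, and limma voom called 2 of transport and 1 of the methionine cycle, where 1 tumour left out gave 0 to 1. The cause of these differences was not tested. Leaving out a tumour leaves fewer samples, and leaving out any tumour but Ivl:BRAFV600E-SOX2LSL tumour 1 gave 22 to 412 genes called. Without Ivl:BRAFV600E-SOX2LSL tumour 1, which had the highest Odc1, the number rose from 954 to 1575. The share of calls that were higher was 61.3% as reported, 52.2% under upper-quartile scaling and 70.6% with sex. No paired analysis was possible because the count columns carry no replicate number. Exon lengths change the RPKM levels and their order but not the fold changes. With 3 tumours per genotype, a log2 difference as small as that of Oaz1 (0.13) is close to the standard error of the fit.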
